A study of Homo sapiens with 10 samples.

Results

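Class I phosphoinositide 3-kinases (PI3K) were described here at the RNA level in NB4 cells, through 10 protein-coding genes taken by symbol from the deposited tables: PIK3R6, PIK3R5, PIK3CG, PIK3CD, PIK3CA, PIK3CB, PIK3R1, PIK3R2, PIK3AP1 and INPP5D. All 10 were found once in each table, among 19975 protein-coding genes and 60603 genes in all. Of the 10, 8 encode PI3K subunits, while PIK3AP1 encodes an adaptor and INPP5D a phosphatase that acts on the PI3K product.

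NB4 cells are an established human line from an acute promyelocytic leukemia. In the knockdown experiment, cells were transduced for 48 h with the empty lentiviral vector pLKO.1 puro (EV) or with the vector carrying shA1 or shB2, hairpins against GSE1, so that all of these cells carry a lentiviral vector. In the inhibitor experiment, cells with no vector named in the labels received DMSO or 2 µM MC2580, an inhibitor of the histone demethylase LSD1, for 24 h. Each of the 5 conditions had 2 replicates, giving 6 libraries in the first experiment and 4 in the other, all from 1 cell line.

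The level used throughout is the authors' base mean, read as the average over all libraries of an experiment of the normalized counts. How the authors normalized the counts was not checked. The knockdown table gives a base mean beside each hairpin, and these were equal for all 60603 genes, so that 1 mean serves both hairpins and EV. It joins treated and control libraries in 1 number. No value per library was analysed here, so no SD, n or interval stands beside a level, and no test between EV, shA1 and shB2 or between DMSO and MC2580 was made. Both tables were normalized separately, so levels of the experiments stand side by side below and were not tested against each other. The base means summed to 40543130 in the knockdown experiment and 41201112 in the inhibitor experiment, and the depth of single libraries was not examined.

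A class I PI3K phosphorylates a lipid of the plasma membrane, making PIP3, which recruits kinases such as AKT and BTK. Each enzyme pairs a catalytic p110 subunit with a regulatory subunit. The p110α (PIK3CA), p110β (PIK3CB) and p110δ (PIK3CD) subunits bind p85-type subunits, which dock on tyrosine-phosphorylated receptors and adaptors. The p110γ subunit (PIK3CG) instead binds p101 (PIK3R5) or p84 (PIK3R6). It is activated through G protein-coupled receptors, which is not a trait of p110γ alone. In blood cells, p110δ and p110γ are the isoforms known for their leukocyte-enriched expression.

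The labelled cell type was checked against marker genes. Of 8 promyelocyte and myeloid markers, 1 had a base mean under 5 in each experiment, and this was ELANE, neutrophil elastase, at 1.10 and 3.87. KIT was low as well, with base means of 66.3 in the knockdown and 17.6 in the inhibitor experiment. Per length of exons, KIT stood at percentile 31.6 and 23.6 of the protein-coding genes with a base mean above 0. Other markers of this list were higher on that scale. SPI1 stood at percentile 97.8 and 97.9, PRTN3 at 96.0 and 97.6, and CEBPE at 92.3 and 96.6. CD33 was at 79.4 and 79.0, and AZU1 at 76.6 and 89.6. MPO, the myeloperoxidase of azurophil granules, made up 1.25% of the summed base means in the knockdown experiment and 2.00% in the inhibitor experiment. Summed base means over 3 T cell markers were 901 and 881, nearly all of it CD3D at 866 and 869, while CD3E stood at 1.55 and 2.98. Over 3 B cell markers the sums were 150 and 147, with MS4A1 at 0.217 and 0, and over 3 erythroid markers they were 11.7 and 0. The epithelial markers EPCAM and KRT8 summed to 584 and 547, with neither near 0, and the fibroblast markers COL1A1 and COL1A2 to 14.5 and 13.0, with COL1A2 at 0.0734 and 0.750. The part of other cell types in the PI3K levels was not tested. The targets of the treatments were both present. GSE1 had a base mean of 2963 in the knockdown and 4441 in the inhibitor experiment, and KDM1A, which encodes LSD1, had 7648 and 6285. As averages over treated and control libraries, these values do not check the labels.

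The 10 genes spanned a wide range. On the deposited scale, base means in the knockdown experiment ran from 148 for PIK3R6 to 11609 for PIK3AP1, and in the inhibitor experiment from 58.2 for PIK3R6 to 7392 for PIK3CD. Levels of different genes were compared per kilobase (kb) of summed exon length, because a longer gene yields more reads at the same number of transcripts. Per kb, the highest gene stood 49.0-fold above the lowest in the knockdown experiment and 60.9-fold in the inhibitor experiment. PIK3R6 was the lowest in both, and PIK3AP1 the highest, except that PIK3CD was above it in the inhibitor experiment without length correction or per kb of the longest transcript. Together the 10 genes took 0.107% of the summed base means in the knockdown and 0.0695% in the inhibitor experiment.

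**Figure D1:**
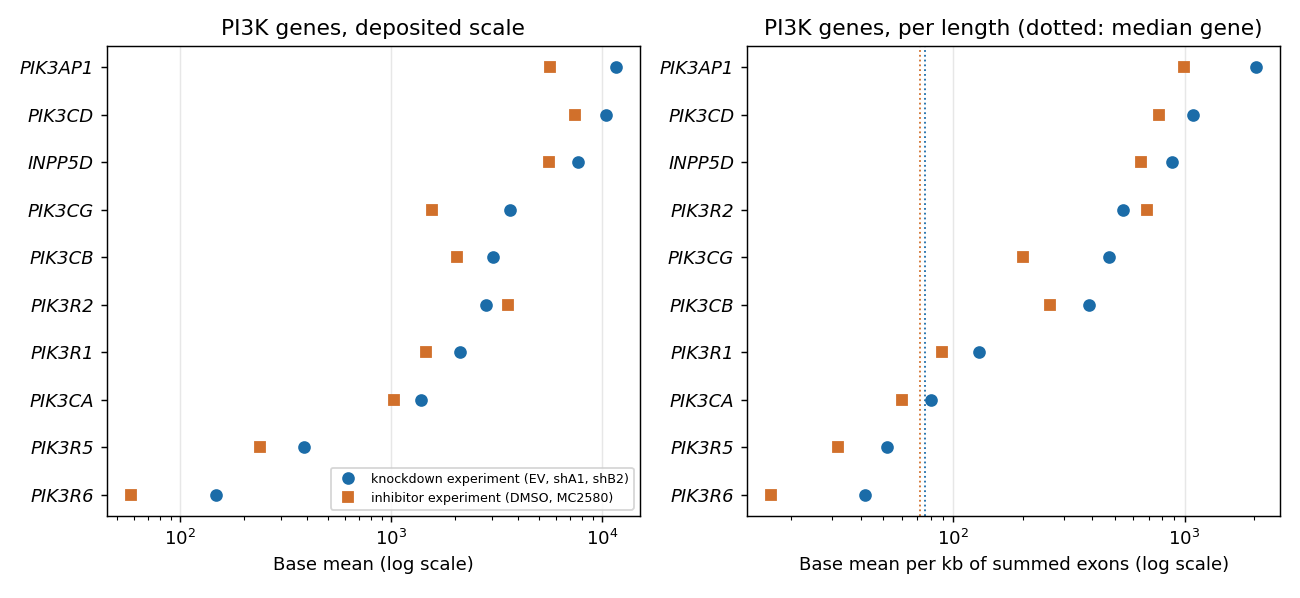
Base mean (left) and base mean per kb of summed exons (right) of the 10 genes, on log axes, with circles for the knockdown and squares for the inhibitor experiment, each symbol 1 average over all libraries of that experiment. The dotted lines mark the median protein-coding gene (75.2 and 71.9 per kb), and PIK3R5 and PIK3R6 lie to the left of both.

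Among the catalytic subunits, PIK3CD had the highest level. PIK3CD (ENSG00000171608.15, chromosome 1, 9629889 to 9729114, plus strand) has 24 exons in its canonical transcript, with positions given here and below on GRCh38. Its base mean was 10453 in the knockdown and 7392 in the inhibitor experiment, which is 1093 and 773 per kb. Those levels put it at percentile 90.7 and 86.4 of the protein-coding genes with a base mean above 0.

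PIK3CG and PIK3CB lay next to each other in level. PIK3CG (ENSG00000105851.11, chromosome 7, 106865278 to 106908980, plus strand, 11 exons in the canonical transcript) had base means of 3648 and 1555 in the knockdown and inhibitor experiments, or 470 and 200 per kb. PIK3CB (ENSG00000051382.8, chromosome 3, 138652698 to 138834928, minus strand) had base means of 3031 and 2056, or 387 and 262 per kb. PIK3CG was thus above PIK3CB in the knockdown experiment, with a ratio per kb of 1.22, and below it in the inhibitor experiment, with a ratio of 0.763. Whether this order differs beyond the spread of the libraries cannot be judged from averages.

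PIK3CA had the lowest level of the 4 catalytic genes. PIK3CA (ENSG00000121879.5, chromosome 3, 179148114 to 179240093, plus strand) had base means of 1385 and 1035, or 80.5 and 60.2 per kb, close to the median gene at percentile 50.8 and 48.0. Per kb, PIK3CD stood 13.6-fold above PIK3CA in the knockdown and 12.8-fold in the inhibitor experiment. Its summed exons reach 17.2 kb while the longest transcript has 9.26 kb, and per kb of the longest transcript the ratios were 12.9 and 12.2.

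As a share of the 4 catalytic genes' summed level per kb, PIK3CD held 53.8% in the knockdown and 59.7% in the inhibitor experiment. The shares of PIK3CG were 23.2% and 15.5%, those of PIK3CB 19.1% and 20.3%, and those of PIK3CA 3.97% and 4.65%. Of the leukocyte-enriched isoforms, PIK3CD alone carried most of the catalytic RNA on this scale in both experiments. The other, PIK3CG, had a smaller share than PIK3CB in the inhibitor experiment. RNA shares say nothing of protein or of enzyme activity.

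The p85-type subunits stabilize p110α, p110β and p110δ and hold them near phosphorylated receptors. PIK3R2, which encodes p85β, had the highest level of this class. PIK3R2 (ENSG00000105647.17, chromosome 19, 18153163 to 18170532, plus strand) had a base mean of 2807 in the knockdown and 3571 in the inhibitor experiment, or 544 and 692 per kb. The higher of these base means was in the inhibitor experiment. On the pathway list described below, AKT1 had the same order, with 11124 and 13745, and PIK3R3 the other, with 1097 and 485. Both experiments were normalized separately and the share of all genes with either order was not counted, so no trait of PIK3R2 is read from this. On the same strand, the annotated protein-coding gene ENSG00000268173 covers 76.4% of the exon bases of PIK3R2. The tables list that gene with base means of 4.58 and 6.69, and how the authors' counting divided shared reads between both genes was not tested, which leaves the level of PIK3R2 uncertain to that extent.

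PIK3R1, which encodes p85α and its shorter forms p55α and p50α, had base means of 2111 and 1461, or 129 and 89.5 per kb (ENSG00000145675.15, chromosome 5, 68215740 to 68301821, plus strand). With 33 annotated transcripts and 16.3 kb of summed exons against 6.98 kb in the longest transcript, its level per length depends on which length is taken. PIK3R2 stood 4.21-fold above PIK3R1 in the knockdown experiment per kb of summed exons and 2.33-fold per kb of the longest transcript. In the inhibitor experiment these ratios were 7.73 and 4.28. PIK3R3, which encodes p55γ and was taken from the pathway list, had 148 and 65.6 per kb of summed exons. Of the summed level of these 3 genes, PIK3R2 held 66.2% in the knockdown and 81.7% in the inhibitor experiment.

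PIK3R5 and PIK3R6 encode the regulatory partners of p110γ, p101 and p84, and were the lowest of the 10 genes in both experiments. They are neighbours on the minus strand of chromosome 17. PIK3R6 (ENSG00000276231.4) runs from 8802722 to 8867677 and PIK3R5 (ENSG00000141506.13) from 8878911 to 8965712, with 11233 bases and 0 annotated genes between them. PIK3R6 had a base mean of 148 in the knockdown and 58.2 in the inhibitor experiment, or 41.6 and 16.3 per kb, at percentile 43.9 and 37.2. PIK3R5 had base means of 387 and 238, or 51.5 and 31.7 per kb, at percentile 45.8 and 41.8. Both were below the median gene in each experiment and above genes listed at 0.

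Between the partners, PIK3R5 was 1.24-fold above PIK3R6 per kb of summed exons in the knockdown experiment and 1.94-fold in the inhibitor experiment. With the longest transcript as the length, the ratios were 1.97 and 3.08, since the summed exons of PIK3R5 reach 7.51 kb against 4.49 kb in its longest transcript, while those of PIK3R6 differ little, at 3.57 and 3.39 kb. The catalytic gene PIK3CG was higher than both. Per kb of summed exons, PIK3CG was 5.04-fold above the sum of PIK3R5 and PIK3R6 in the knockdown and 4.17-fold in the inhibitor experiment. These ratios were 3.98 and 3.14 with the longest transcript as the length, and 6.8 and 5.25 without length correction.

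**Figure D2:**
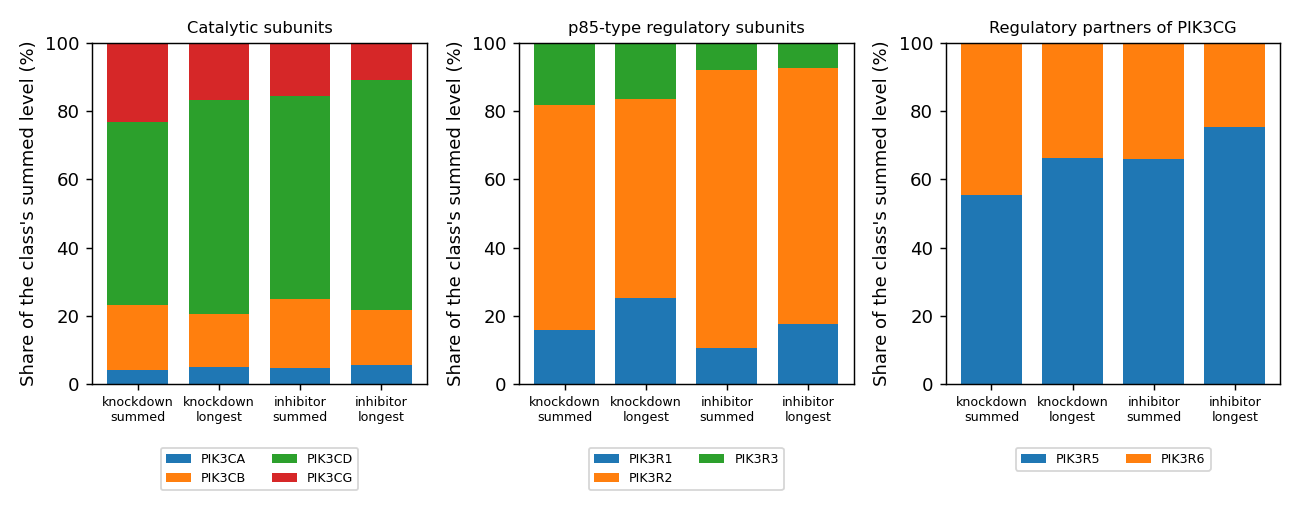
Share of each gene, in percent, in the summed level per kb of its subunit class, for the knockdown and inhibitor experiments and with the summed exons or the longest transcript as the length. PIK3CD holds the largest share of the catalytic class in all 4 bars, from 53.8% to 67.4%, PIK3R2 that of the p85-type class, from 58.6% to 81.7%, and PIK3R5 that of the PIK3CG partners, from 55.3% to 75.5%.

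The adaptor and the phosphatase were among the highest of the 10 genes. PIK3AP1 encodes BCAP, an adaptor that binds p85 after phosphorylation and acts downstream of the B cell receptor and Toll-like receptors. PIK3AP1 (ENSG00000155629.15, chromosome 10, 96593315 to 96720514, minus strand) had base means of 11609 in the knockdown and 5661 in the inhibitor experiment, or 2041 and 995 per kb, at percentile 95.5 and 89.4. INPP5D encodes SHIP1, which dephosphorylates PIP3 in blood cells. INPP5D (ENSG00000168918.14, chromosome 2, 233059967 to 233207903, plus strand) had base means of 7668 and 5613, or 883 and 647 per kb, at percentile 88.3 and 83.9.

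INPPL1, which encodes the related phosphatase SHIP2, had base means of 14275 and 14057, or 2171 and 2138 per kb, which is 2.46-fold above INPP5D in the knockdown and 3.31-fold in the inhibitor experiment.

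**Figure D3:**
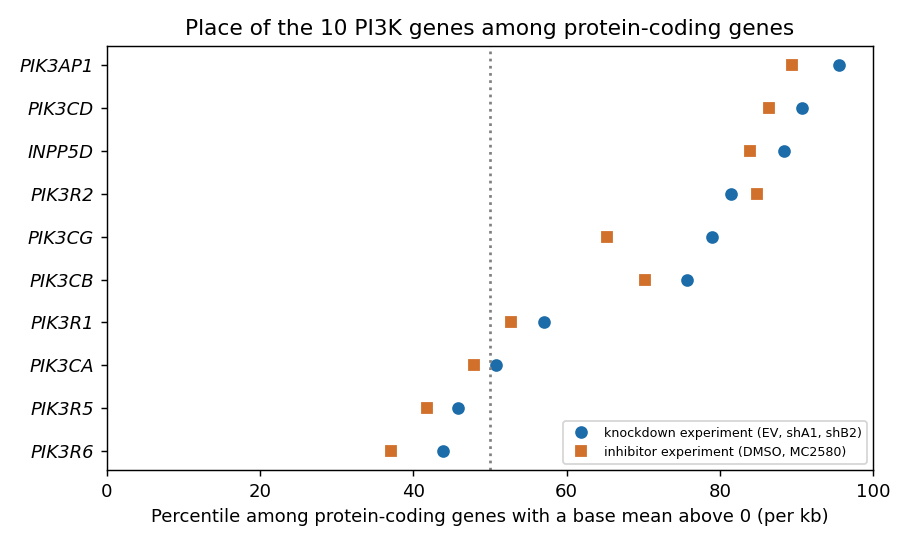
Percentile of each of the 10 genes among the protein-coding genes with a base mean above 0 in the same table, ranked per kb of summed exons, with circles for the knockdown and squares for the inhibitor experiment. PIK3AP1 and PIK3CD are the 2 highest in both experiments, and PIK3R6 is the lowest at 43.9 and 37.2.

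Set against all protein-coding genes with a base mean above 0, the median percentile of the 10 genes was 77.4 in the knockdown experiment (17298 genes with a length) and 67.7 in the inhibitor experiment (17050 genes). In the knockdown experiment, 8 of the 10 were above the median gene and 6 above percentile 75. In the inhibitor experiment, 7 were above the median gene and 4 above percentile 75, with PIK3CA just below the median. The place of the genes among each other was the same in both experiments for 6 of the 10. The other 4 were PIK3CG and PIK3CB, which changed places, and PIK3R2 and INPP5D, which also did per kb of summed exons. With the longest transcript or without length correction, INPP5D had place 3 in both experiments.

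The wider pathway was described through a list of 36 genes, of which 35 had a base mean above 0 in each experiment. The exception was PIK3C2G, a class II PI3K, listed at 0 in both. In the knockdown experiment 32 of the 36 genes were above the median protein-coding gene, and in the inhibitor experiment 30 were. The median percentile of the 35 genes was 70.5 and 72.9, next to 77.4 and 67.7 for the 10 genes. No spread between libraries stands behind these medians, and the difference was not tested.

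At the top of the list stood GNB2, a G protein β subunit that conveys receptor signals to p110γ, with 5405 per kb in the knockdown and 6293 in the inhibitor experiment. INPPL1 followed in both, at 2171 and 2138. At the bottom were GAB1, an adaptor that binds p85, with base means of 1.15 and 2.21, and INPP4B, a phosphatase of a PI3K product, with 3.02 and 2.06. The related adaptor GAB2 had base means of 2198 and 2399. PIK3C3, the class III enzyme of autophagy and endosomes, had 113 and 86.5 per kb, and its regulatory partner PIK3R4 had 329 and 215. AKT1 and AKT2 encode kinases that PIP3 recruits, and AKT1 had 1015 and 1255 per kb and AKT2 284 and 307.

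**Figure D4:**
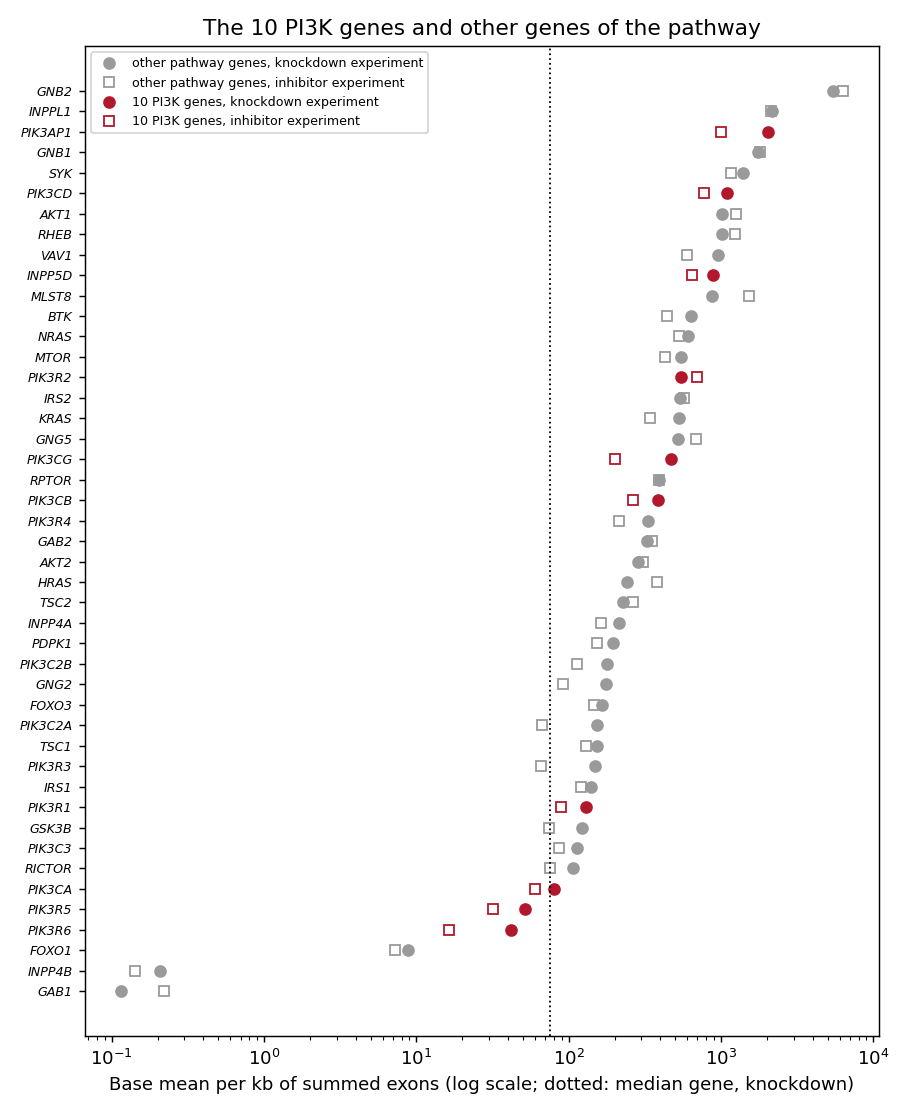
Base mean per kb of summed exons, on a log axis, of the 10 genes (red) and the 35 other pathway genes with a base mean above 0 (grey), ordered by the knockdown experiment, with filled circles for it and open squares for the inhibitor experiment. GNB2 is at the top with 5405 per kb and GAB1 at the bottom with 0.115 per kb, and PIK3R5 and PIK3R6 are the lowest of the red genes.

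Other annotated genes overlap the exons of 4 of the 10 genes. Besides ENSG00000268173 at PIK3R2, the opposite-strand genes KCNMB3 and CLSTN1 share 19.8% of the exon bases of PIK3CA and 1.98% of those of PIK3CD. KCNMB3 had base means of 59.8 and 70.7, and CLSTN1 of 6954 and 5773. A lncRNA, ENSG00000289129, which is not matched to the tables, shares 0.945% of the exon bases of INPP5D. The TruSeq RNA v2 kit used for the libraries does not mark strand, so strand cannot tell apart reads from bases shared with an opposite-strand gene. How the authors' counting divided such reads was not tested. PIK3CD-AS1 and PIK3CD-AS2, antisense RNAs within the span of PIK3CD, share 0 exon bases with it and had base means of 49.0 and 8.03 in the knockdown and 63.1 and 18.1 in the inhibitor experiment.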

How the data were processed

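mRNA libraries of NB4 cells were prepared by the authors with the TruSeq RNA v2 kit, which does not mark strand, mapped to hg38 with STAR 2.7 and quantified with RSEM, and per the labels DESeq2 followed, whose version is not given in the sources used here, as is the annotation release. The deposited signal used is the base mean, read as the average of the authors' normalized counts over the libraries of an experiment. Its calculation was not checked. The remaining 15 numeric columns that were not used hold the authors' own comparisons: log2 fold changes, standard errors, statistics, p-values and adjusted p-values. The knockdown table holds a base mean column for each hairpin, equal in all 60603 rows, and the one headed 4-2, for shB2, was read. The count test written for values per library was therefore not run.

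The 10 genes and the lists were chosen with earlier results of these data known. Genes named are the 10, GSE1, KDM1A, the markers, and from the pathway list PIK3R3, PIK3C3, PIK3R4, INPPL1 and its highest and lowest genes; PIK3C2G, AKT1, AKT2, GAB2 and the overlapping genes were named after their values were seen. Apart from the 36 pathway genes counted, 2 genes of the list are not reported here and enter no count or median. Lengths and coordinates came from GENCODE 44 on GRCh38, the build named by the authors, by stable identifier (60306 of 60603 rows matched, and all 10 genes). The summed exon length joins the exons of all transcripts of a gene. Calculations used Python 3.11.15, pandas 2.3.3 and Matplotlib 3.10.9, and length and percentile functions were tested on simulated data. The alternatives were no length correction, the longest transcript, a minimum base mean of 10, and genes of any class.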

Additional observations from a re-analysis of the deposited data

How the results depend on the processing

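The number of the 10 genes above the median gene was 8 in the knockdown experiment without length correction and with the longest transcript, 6 with a minimum base mean of 10 for the genes ranked, and 10 among genes of any class. In the inhibitor experiment these numbers were 8, 8, 6 and 10, against 7 as reported. PIK3R6 and PIK3R5 kept places 10 and 9 among the 10 genes under every length choice in both experiments. PIK3AP1 and PIK3CD changed places in the inhibitor experiment under both other length choices, and so did PIK3R2 and INPP5D. Of 20 places, 16 were unchanged with the longest transcript and 13 without length correction. Percentiles depend on the genes ranked: they ran from 37.2 to 95.5 as reported, from 14.7 to 93.9 with the minimum base mean, and from 59.3 to 97.6 among genes of any class. No paired analysis was possible because the values used are averages over all libraries of an experiment and come from no test. For the same reason edgeR, DESeq2, the filter on low counts and leaving out a replicate were not run. Depth per library was not examined, so counting error is not known for any level.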
